A study of Homo sapiens with 6 samples.

Results

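The genes examined here encode the proteasome, its activators and the factors that assemble it. They were taken by symbol as the protein-coding genes named PSMA, PSMB, PSMC, PSMD, PSME, PSMF or PSMG followed by a number, with pseudogenes left out, and 48 of the 62700 genes in the deposited table met this rule. RNA from A549, an established epithelial cell line from a human non-small cell lung cancer, was sequenced in 6 libraries. In 3 of them the cells carried a control guide (sgControl, genotype labelled wild type), and in 3 they carried a guide against the histone H2A gene H2AC19 (sgH2AC19, described as a knockout derivative). All cells grew in RPMI-1640 with fetal bovine serum, with no other treatment named. The labels do not say how the guide was delivered or whether a group was 1 clone or a pool. Nor do they say whether libraries of a group came from separate cultures. Each p-value below therefore weighs the group difference against the spread between libraries of the same group, which may be technical. The spread used for a gene was drawn partly from other genes of similar level.

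The proteasome degrades proteins that carry a ubiquitin chain. Its 20S core is a barrel of stacked rings, with PSMA (alpha) subunits in the outer rings forming the gate and PSMB (beta) subunits in the inner rings holding the protease sites. The 19S regulatory particle caps the core: a base with a ring of PSMC ATPases unfolds the substrate and threads it in, and a lid of PSMD subunits removes the ubiquitin. Interferon-gamma exchanges the catalytic beta subunits for PSMB8, PSMB9 and PSMB10, giving the immunoproteasome, which is known for producing peptides for MHC class I. In many cells the transcription factor NRF1 (gene NFE2L1) raises proteasome genes together when proteasome activity is short.

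Levels are in FPKM, fragments per kilobase of the length assigned to a gene, scaled to library size. Levels of different genes therefore depend on that length. In sgControl replicate 1, PSMA4 had 9629 recovered reads and 38.0 FPKM, while PSMB7 had 5675 and 87.5. Their recovered lengths were 6994 and 1788 bases. For PSMD1 the recovered length was 15795 bases, against 5187 annotated exon bases. Rankings, shares, sums and ratios across genes below describe the listed FPKM and may not follow transcript numbers. The differences are sgH2AC19 minus sgControl on the log2(FPKM + 1) scale, which understates the change of genes with low levels. They were tested with limma over the 12871 genes that reached 1 FPKM in at least 3 libraries, with Benjamini-Hochberg adjusted p-values over all of them and a threshold of 0.05. Of the 48 proteasome genes, 42 passed this filter. PSMA2, PSMA8, PSMB11, PSMC1, PSMD9 and PSMG4 did not, and are given by their levels.

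Reads recovered from the FPKM steps gave totals between 35681162 and 45738439 per library. H2AC19 and its neighbouring copy H2AC18 were listed at 0 FPKM in all 6 libraries, so the table gives no check of the targeted gene. The sgH2AC19 replicate 3 library stood apart from its group on the second principal component (18.2% of the variance; -16.0 against 8.09 and 8.32 for the others). It held the lowest value of the 6 libraries for 20 of the 42 tested proteasome genes (47.6%), and for 27.6% of all genes tested. Leukocyte and endothelial marker genes, checked because those cells carry the immunoproteasome, were under 1 FPKM in every library, with CD3E and TYROBP at 0. The 8 leukocyte markers summed to between 0.700 and 0.878 FPKM in sgControl and between 0.332 and 0.488 FPKM in sgH2AC19. The 8 fibroblast markers summed to between 4.47 and 5.05 FPKM in sgControl and between 6.65 and 7.24 FPKM in sgH2AC19, with 5 of them under 1 FPKM throughout. Epithelial markers, led by KRT18, summed to between 833 and 863 FPKM in sgControl and between 964 and 1011 FPKM in sgH2AC19. They did not move together: limma called 4 of the 6 higher, KRT8 and KRT18 among them, and KRT19 and KRT7 lower. The part of these marker shifts in the results below was not tested.

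Few proteasome genes differed between the guides. The ATPase gene PSMC3 and the lid gene PSMD11 rose in sgH2AC19, and the catalytic core gene PSMB7 and the activator gene PSME2 fell. These 4 made up 9.52% of the 42 tested genes, where 23.1% of all genes tested were called in either direction, 12.0% higher and 11.0% lower. The 3 sgH2AC19 libraries lay wholly above or wholly below the 3 sgControl libraries for 13 of the 42 (31.0%), 7 higher and 6 lower, against 43.2% of all genes tested. At an unadjusted p under 0.05 there were 3 higher and 4 lower proteasome genes, the 4 called and PSMB8, PSMB9 and PSMB10. A second method, voom on the recovered reads, called the same 4. Without sgH2AC19 replicate 3, limma called PSMC3, PSMB7 and PSMD11, and PSME2 had an adjusted p of 0.0750. Fewer remained in the other leave-one-out fits: PSMC3 alone without sgControl replicate 2, and PSMC3 and PSMB7 without any 1 of the other 4 libraries. PSMC3 and PSMB7 were also the 2 called when all genes above 0 FPKM were tested.

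The differences were small as well as few. The median log2 difference of the 42 genes was -0.011, against -0.0051 over all genes tested, and the median size without sign was 0.065 against 0.13. Within each group the libraries also lay close together. The median coefficient of variation was 3.14% in sgControl and 4.15% in sgH2AC19, against 5.26% and 7.55% over all genes tested. Genes were not matched for level in these comparisons. Of the 38 genes not called, 33 had at least 5 FPKM in sgControl. Their differences ran from -0.15 to 0.11 and their 95% intervals lay between -0.31 and 0.22.

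**Figure D1:**
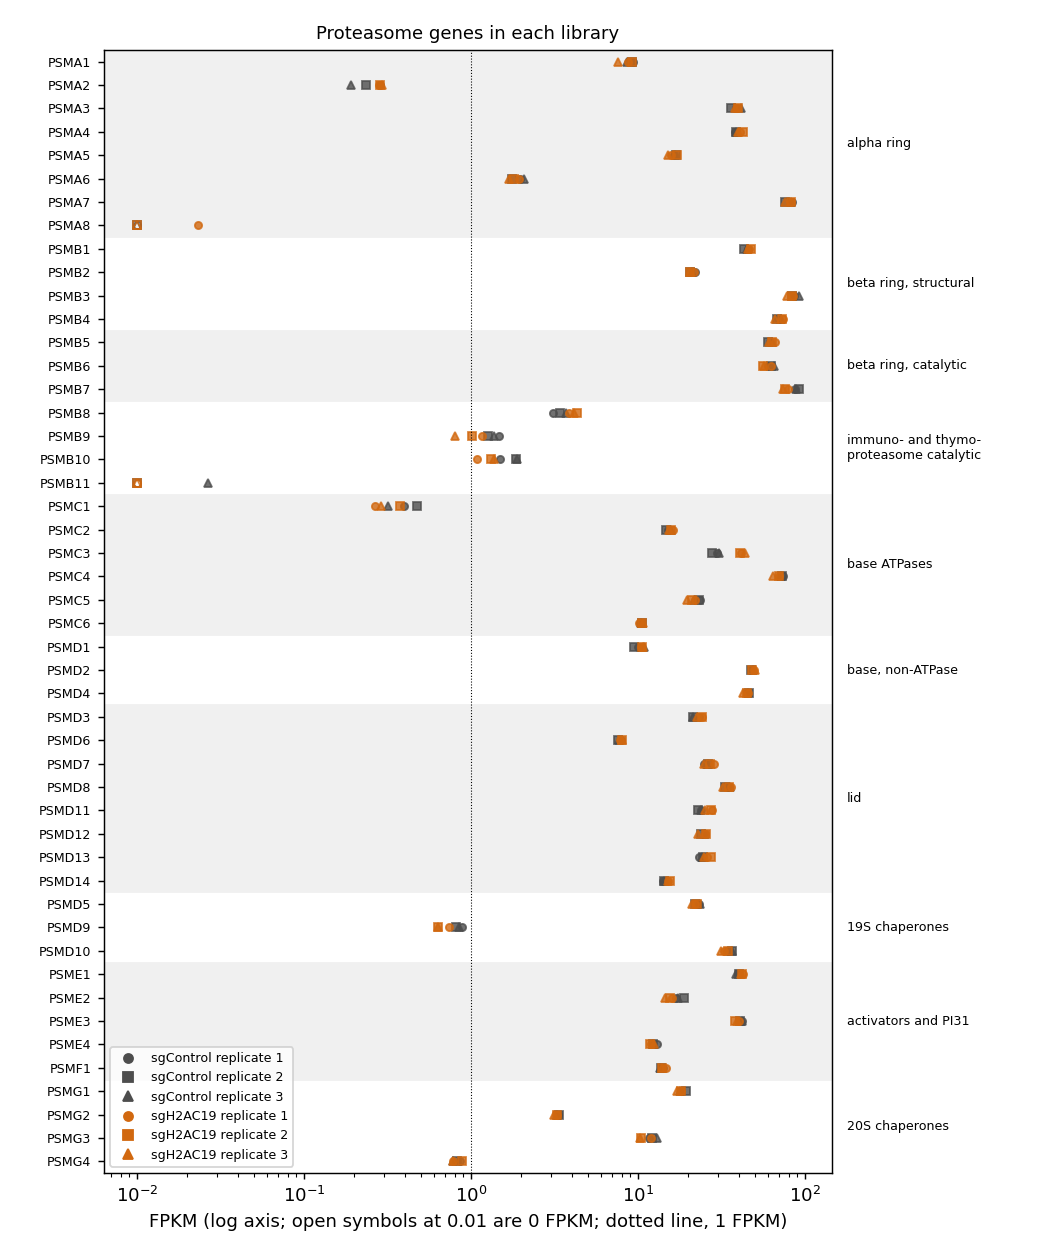
FPKM (log axis) of the 48 proteasome genes in each of the 6 libraries, ordered by role, with sgControl and sgH2AC19 in separate colours. Open symbols placed at 0.01 stand for a listed 0. Most genes had both groups close together, and the 6 genes under the filter lie to the left of the dotted line at 1 FPKM.

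The alpha ring genes were close to level between the guides, and limma called none of the 6 tested. The highest of them, PSMA7, had 83.2, 76.1 and 82.3 FPKM in sgControl and 81.9, 82.2 and 76.0 in sgH2AC19, with overlap, for means of 80.5 ± 3.88 FPKM in sgControl and 80.0 ± 3.47 in sgH2AC19 (SD, n = 3 each). PSMA3 had 38.7 FPKM in sgControl and 38.9 in sgH2AC19. PSMA4 had 38.0, 38.8 and 38.7 FPKM in sgControl and 40.8, 42.4 and 39.7 in sgH2AC19. Its groups did not overlap, but the log2 difference of 0.086 was not called (limma adjusted p = 0.176). PSMA5, PSMA1 and PSMA6 had lower levels, at 16.6, 9.03 and 1.94 FPKM in sgControl and 15.9, 8.47 and 1.80 in sgH2AC19. Another gene on the same strand shares 24.7% of the exon bases of PSMA1, so the level of PSMA1 is uncertain. PSMA8, the testis form of an alpha subunit, was at 0 in 5 libraries and rested on 2 reads in sgH2AC19 replicate 1.

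PSMA2 and PSMA6 were listed far below the other ring members, although each ring holds 1 copy of every subunit. PSMA2 had 0.283, 0.236 and 0.191 FPKM in sgControl and 0.282, 0.284 and 0.292 in sgH2AC19, from 65 to 108 reads a library. The pseudogene of PSMA6, PSMA6P1, had 25.5, 27.4 and 28.9 FPKM in sgControl and 31.0, 29.1 and 28.4 in sgH2AC19. The sequence of PSMA6P1 matched the PSMA6 transcript at 97.4% of 741 bases in GENCODE 29. Which of the 2 loci these reads came from was not tested, so the level of PSMA6 is uncertain. Summed with its pseudogenes, PSMA6 came to 29.8 FPKM in sgControl and 32.0 in sgH2AC19.

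Of the beta subunits, only the catalytic gene PSMB7 was called. PSMB7 (ENSG00000136930, chromosome 9, minus strand) encodes the subunit with trypsin-like activity and had the highest mean FPKM of the proteasome genes in sgControl. It had 87.5, 91.5 and 88.1 FPKM in sgControl and 79.5, 75.4 and 74.0 in sgH2AC19. All 3 sgH2AC19 libraries lay below all 3 sgControl libraries. The means were 89.0 ± 2.13 and 76.3 ± 2.84 FPKM (SD, n = 3 each), a log2 difference of -0.22 (SE 0.044, 95% interval -0.32 to -0.12, limma adjusted p = 0.0128). Without sgControl replicate 2 the difference stayed negative but was no longer called (limma adjusted p = 0.0544).

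The other constitutive catalytic genes were not called. PSMB5, the chymotrypsin-like subunit that bortezomib inhibits, had 61.6, 60.2 and 63.6 FPKM in sgControl and 66.2, 63.3 and 60.7 in sgH2AC19 (limma adjusted p = 0.617). PSMB6, the caspase-like subunit, had 60.1, 62.5 and 65.2 FPKM in sgControl and 62.3, 56.1 and 56.4 in sgH2AC19 (limma adjusted p = 0.227). Both sets of libraries overlapped. The ratio of PSMB7 to PSMB5 was 1.42, 1.52 and 1.39 in sgControl and 1.20, 1.19 and 1.22 in sgH2AC19, so the groups were apart in this ratio of levels. The structural beta genes PSMB3, PSMB4, PSMB1 and PSMB2 stood at 87.2, 69.4, 44.6 and 21.2 FPKM in sgControl and 82.4, 70.9, 46.4 and 20.9 in sgH2AC19, with log2 differences from -0.081 to 0.056. PSMB3, the highest, had 86.1, 83.7 and 91.8 FPKM in sgControl and 85.1, 83.9 and 78.1 in sgH2AC19. PSMB2, the lowest, had 21.9, 20.4 and 21.1 FPKM in sgControl and 21.7, 20.4 and 20.5 in sgH2AC19. Both overlapped between the guides. PSMB3 overlapped PSMB7 in sgControl and lay above it on average in sgH2AC19.

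The immunoproteasome genes were expressed at a low level and did not move in 1 direction. In each of them the 3 sgH2AC19 libraries lay on 1 side of the 3 sgControl libraries, but none passed the adjusted threshold. PSMB8, the counterpart of PSMB5, had 3.11, 3.42 and 3.68 FPKM in sgControl and 3.83, 4.32 and 4.13 in sgH2AC19, a log2 difference of 0.21 (SE 0.068, limma adjusted p = 0.0615). PSMB9, the counterpart of PSMB6, had 1.46, 1.26 and 1.37 FPKM in sgControl and 1.16, 1.01 and 0.804 in sgH2AC19, a log2 difference of -0.25 (limma adjusted p = 0.0875). PSMB10, the counterpart of PSMB7, had 1.49, 1.87 and 1.89 FPKM in sgControl and 1.09, 1.31 and 1.38 in sgH2AC19, a log2 difference of -0.28 (limma adjusted p = 0.0612). With a pseudocount of 0.1 in place of 1 the differences were 0.26, -0.44 and -0.45, in the same order. PSMB8 and PSMB9 are neighbours in the MHC region and differed in opposite directions, with neither called. Genes on the other strand, PSMB9 among them, overlap 20.6% of the exon bases of PSMB8. For PSMB9 other genes overlap 5.66% on the same strand and 4.52% on the other. PSMB9 rested on 102 to 186 reads a library and PSMB10 on 76 to 125, and 34.8% of the exon bases of PSMB10 are shared with another gene on the same strand, so its value is uncertain. PSMB11, the thymus form, was at 0 in 5 libraries and had 0.0267 FPKM in sgControl replicate 3.

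Set against the constitutive subunit each one replaces, the immuno forms stayed minor in every library. PSMB8 made up 4.80%, 5.37% and 5.47% of the PSMB8 and PSMB5 sum in sgControl and 5.47%, 6.38% and 6.38% in sgH2AC19. PSMB9 made up 2.38%, 1.97% and 2.06% of its sum with PSMB6 in sgControl and 1.83%, 1.76% and 1.41% in sgH2AC19. PSMB10 made up 1.68%, 2.00% and 2.11% of its sum with PSMB7 in sgControl and 1.35%, 1.71% and 1.83% in sgH2AC19, and here the groups overlapped. The 3 immuno genes together gave between 2.82% and 3.10% of the summed catalytic FPKM in sgControl and between 2.84% and 3.29% in sgH2AC19. In these bulk libraries, fewer cells with a transcript and less of it in each cell cannot be told apart.

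**Figure D2:**
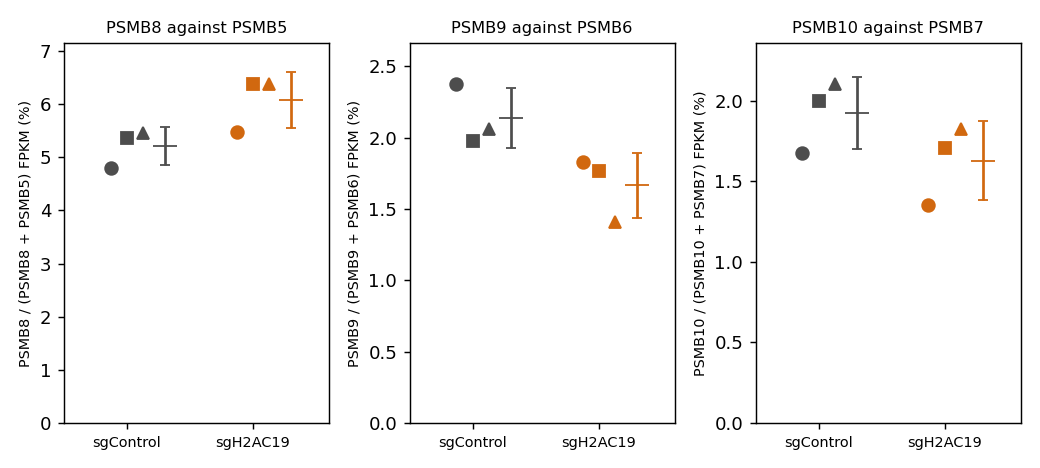
Share (%) of each immunoproteasome gene in its summed FPKM with the constitutive subunit it replaces, 1 point per library with colour for the guide and shape for the replicate (circle 1, square 2, triangle 3), and the group mean with its SD (n = 3 each) to the right. The PSMB8 share lay between 4.80% and 6.38%, the PSMB9 share between 1.41% and 2.38% and the PSMB10 share between 1.35% and 2.11%.

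In the ATPase ring of the base, PSMC3 rose and the other 4 genes tested were not called. PSMC3 (ENSG00000165916, chromosome 11, minus strand) encodes the ATPase also named RPT5, whose C-terminal tail docks on the alpha ring. It had 29.9, 27.8 and 30.4 FPKM in sgControl and 41.4, 40.7 and 43.6 in sgH2AC19. The lowest sgH2AC19 library was well above the highest sgControl library. The means were 29.4 ± 1.38 and 41.9 ± 1.52 FPKM (SD, n = 3 each), a log2 difference of 0.50 (SE 0.051, 95% interval 0.38 to 0.62, limma adjusted p = 0.00135). This was the largest difference of the 42 tested genes and rested on 2465 to 4311 reads a library. It was called under each of the 13 alternative settings run, with differences from 0.46 to 0.53.

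PSMC4 had the highest level of the tested ATPase genes and PSMC6 the lowest. PSMC4 had 73.7, 73.0 and 71.7 FPKM in sgControl and 70.1, 70.2 and 64.4 in sgH2AC19, a log2 difference of -0.093 with groups that did not overlap (limma adjusted p = 0.192). PSMC6 had 10.3, 10.6 and 10.4 FPKM in sgControl and 10.2, 10.6 and 10.7 in sgH2AC19, with overlap. PSMC5 and PSMC2 had means of 22.7 and 15.2 FPKM in sgControl and 20.8 and 15.8 in sgH2AC19. PSMC3 therefore took a greater part of the listed ring. Its share of the summed ATPase FPKM was 19.6%, 18.6% and 20.3% in sgControl and 25.9%, 25.7% and 28.3% in sgH2AC19, and the ratio of PSMC3 to PSMC4 was 0.404 ± 0.022 and 0.616 ± 0.054 (SD, n = 3 each). The ATPase sum leaves out reads listed under PSMC1P1, the pseudogene of PSMC1, at 79.9 FPKM in sgControl and 80.7 in sgH2AC19. With those reads the shares would be smaller in both groups.

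**Figure D3:**
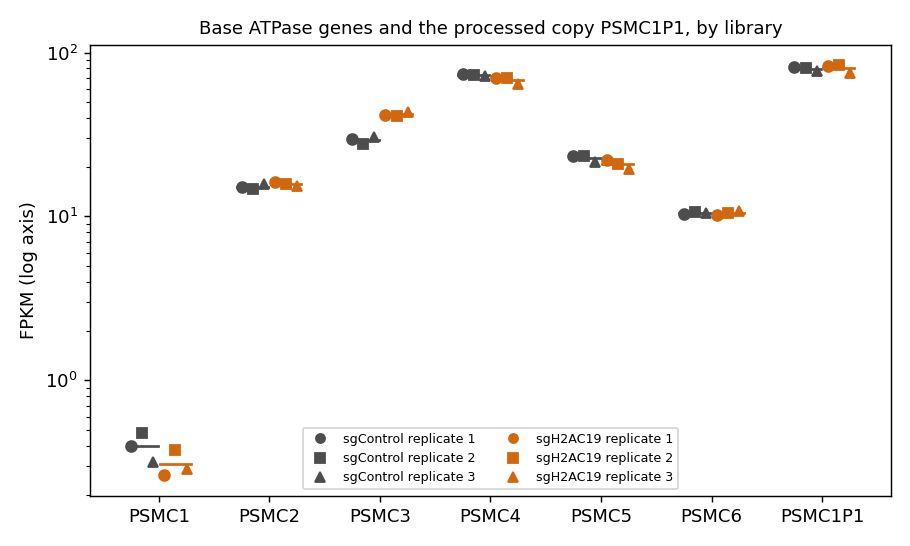
FPKM (log axis) of the ATPase genes of the base, 1 point per library with colour for the guide and shape for the replicate, horizontal lines at the group means, and the pseudogene PSMC1P1 beside PSMC1. PSMC3 is the gene whose sgH2AC19 points (40.7 to 43.6 FPKM) all sit clear above its sgControl points (27.8 to 30.4 FPKM), and the PSMC1 points lie between 0.264 and 0.475 FPKM while those of PSMC1P1 lie between 74.9 and 83.8 FPKM.

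The sixth ATPase gene, PSMC1, was listed almost at 0 while its processed pseudogene was listed at a higher FPKM than any tested ATPase gene. PSMC1 had 0.396, 0.475 and 0.318 FPKM in sgControl and 0.264, 0.375 and 0.288 in sgH2AC19, from 67 to 115 reads a library. PSMC1P1 had 81.5, 80.7 and 77.4 FPKM in sgControl and 83.2, 83.8 and 74.9 in sgH2AC19, with a log2 difference of 0.012 (limma adjusted p = 0.895). Over the 1323 coding bases of PSMC1 in GENCODE 29, which encode 440 residues, 1320 aligned to PSMC1P1 and 1319 of these were identical (99.9%). The single substitution was T885A, counted from 1 at the first coding base with the PSMC1 base first, and it turns codon 295 from tat to taa, a stop. The stretch of coding bases 826 to 945 shows how alike the 2 loci are, with the differing base in capitals.
PSMC1: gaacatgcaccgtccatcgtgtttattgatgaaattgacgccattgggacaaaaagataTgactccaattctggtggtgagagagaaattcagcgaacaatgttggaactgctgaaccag
PSMC1P1: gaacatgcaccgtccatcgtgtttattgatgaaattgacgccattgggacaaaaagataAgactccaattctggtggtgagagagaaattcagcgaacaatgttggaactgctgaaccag
A read that does not cover this base matches both loci equally well over the aligned part. In addition, 75.8% of the exon bases of PSMC1 are overlapped by NRDE2 on the other strand. Which locus the reads came from was not tested, so the values of PSMC1 and PSMC1P1 apart are uncertain. Their sum with the other PSMC1 pseudogenes was 80.3 FPKM in sgControl and 81.1 in sgH2AC19.

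In the rest of the base and in the lid, PSMD11 was the gene called. PSMD11 (ENSG00000108671, chromosome 17, plus strand) encodes the lid subunit RPN6, a scaffold that clamps the lid to the core. It had 23.7, 22.9 and 23.7 FPKM in sgControl and 27.6, 27.4 and 25.0 in sgH2AC19. The sgH2AC19 libraries were all higher, with replicate 3 nearest to sgControl. The means were 23.4 ± 0.46 and 26.7 ± 1.43 FPKM (SD, n = 3 each), a log2 difference of 0.18 (SE 0.051, 95% interval 0.059 to 0.30, limma adjusted p = 0.0428). The call was lost in 7 of 13 alternatives, with adjusted p up to 0.134, among them each leave-one-out fit except that without sgH2AC19 replicate 3, where limma gave an adjusted p of 0.0088.

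Other lid genes had small differences, 5 of the 7 positive and none called. PSMD13 had 24.0 FPKM in sgControl and 26.0 in sgH2AC19, a log2 difference of 0.11 (limma adjusted p = 0.135). PSMD14, the deubiquitinase of the lid, had 14.2 and 15.2 FPKM, a log2 difference of 0.092 (limma adjusted p = 0.137). For both, the sgH2AC19 libraries lay above the sgControl libraries. PSMD8, the highest lid gene, had 35.1, 32.9 and 35.6 FPKM in sgControl and 36.2, 35.0 and 32.4 in sgH2AC19. PSMD6, the lowest, had 7.89, 7.58 and 7.65 FPKM in sgControl and 7.81, 8.01 and 7.95 in sgH2AC19. The guides overlapped in both. PSMD7, PSMD12 and PSMD3 had 25.7, 24.7 and 22.0 FPKM in sgControl and 26.7, 24.5 and 23.5 in sgH2AC19. Of the non-ATPase base genes, the scaffold gene PSMD2 was highest, with 47.2, 47.7 and 48.8 FPKM in sgControl and 49.7, 48.2 and 49.9 in sgH2AC19. PSMD1, the other large scaffold, was lowest, with 9.98, 9.46 and 10.8 FPKM in sgControl and 10.3, 10.5 and 10.7 in sgH2AC19. The guides overlapped in both, and PSMD4, a ubiquitin receptor, had means of 45.5 and 44.3 FPKM.

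Summed over its genes, the core came to 619.5, 608.7 and 635.9 FPKM in sgControl and 623.1, 611.7 and 579.6 in sgH2AC19, and the groups overlapped. The regulatory particle came to 432.0, 426.6 and 433.5 FPKM in sgControl and 455.9, 451.6 and 432.4 in sgH2AC19, which also overlapped. Their ratio did not overlap: regulatory particle over core was 0.697, 0.701 and 0.682 in sgControl and 0.732, 0.738 and 0.746 in sgH2AC19. These sums were not tested, and they leave out reads listed under PSMC1P1 and PSMA6P1. They include the called genes PSMC3 (means of 29.4 FPKM in sgControl and 41.9 in sgH2AC19) and PSMB7 (89.0 and 76.3). The mean sums were 430.7 and 446.6 FPKM for the regulatory particle with PSMC3, and 621.3 and 604.8 for the core with PSMB7. When the listed levels of PSMC3 and PSMB7 are subtracted from these sums, the ratio overlaps between the guides.

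The assembly factors were not called. The base chaperone PSMD10 (gankyrin) had 34.0, 36.6 and 36.6 FPKM in sgControl and 32.5, 34.7 and 31.2 in sgH2AC19, with overlap. PSMD5 had means of 22.9 and 21.8 FPKM. The third, PSMD9, was under the filter, with 0.880, 0.816 and 0.851 FPKM in sgControl and 0.733, 0.636 and 0.633 in sgH2AC19, lower in all 3. Of the core chaperones, PSMG1 was highest, with 18.2, 19.3 and 17.9 FPKM in sgControl and 18.1, 18.01 and 17.0 in sgH2AC19, with overlap. PSMG3 and PSMG2 had means of 12.2 and 3.31 FPKM in sgControl and 10.9 and 3.23 in sgH2AC19. PSMG4 had 0.855, 0.824 and 0.783 FPKM in sgControl and 0.779, 0.880 and 0.776 in sgH2AC19, with overlap.

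The 11S activator genes PSME1 and PSME2, whose products form 1 ring together and are both known to be induced by interferon-gamma, differed in opposite directions. PSME2 (ENSG00000100911, chromosome 14, minus strand) had 16.9, 18.8 and 17.4 FPKM in sgControl and 16.0, 15.5 and 14.6 in sgH2AC19. The sgH2AC19 libraries were all lower. The log2 difference was -0.19 (SE 0.057, 95% interval -0.33 to -0.060, limma adjusted p = 0.0474), from means of 17.7 ± 0.98 and 15.3 ± 0.70 FPKM (SD, n = 3 each). The call was lost in 8 of 13 alternatives, each leave-one-out fit included, with adjusted p up to 0.145. PSME1 had 39.7, 40.2 and 38.4 FPKM in sgControl and 42.7, 41.9 and 41.1 in sgH2AC19 without overlap, a log2 difference of 0.085 that was not called (limma adjusted p = 0.167). The ratio of PSME1 to PSME2 was 2.35, 2.14 and 2.21 in sgControl and 2.67, 2.70 and 2.82 in sgH2AC19.

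PSME2 also has pseudogenes that resemble it. Which locus their reads came from was not tested. PSME2P2, which matched PSME2 at 96.4% of 700 bases, had 9.14, 9.76 and 11.5 FPKM in sgControl and 8.12, 8.17 and 9.40 in sgH2AC19, a log2 difference of -0.22 (limma adjusted p = 0.126). Summed with its pseudogenes, PSME2 came to 30.04, 32.3 and 31.5 FPKM in sgControl and 27.5, 26.9 and 26.1 in sgH2AC19, and the sgH2AC19 libraries were again all lower. Of the other activators, PSME4 had 12.9, 12.3 and 12.3 FPKM in sgControl and 11.9, 11.7 and 12.4 in sgH2AC19, with overlap, and PSME3, found in the nucleus, had means of 41.5 and 39.1 FPKM. PSMF1, the regulator PI31, had 13.8 and 14.2 FPKM. PSME3 was lower in all 3 sgH2AC19 libraries, without a call (limma adjusted p = 0.178).

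**Figure D4:**
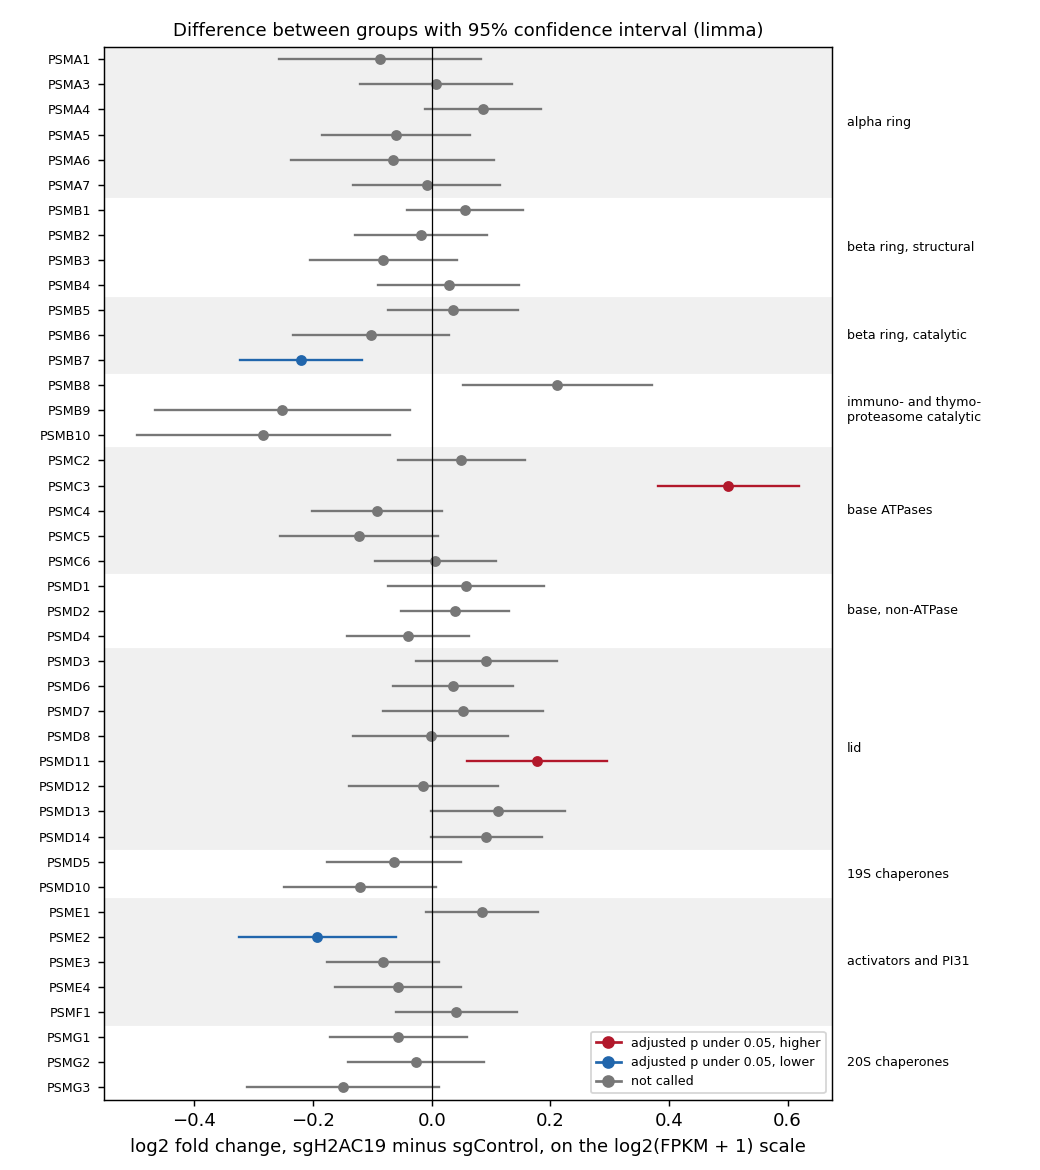
Log2 difference on the log2(FPKM + 1) scale, sgH2AC19 minus sgControl, of the 42 tested proteasome genes with 95% intervals from limma, ordered by role, with the 4 called genes marked. PSMC3 stands at 0.50 and PSMD11 at 0.18 to the right of 0, PSMB7 at -0.22 and PSME2 at -0.19 to the left, and the other intervals lie between -0.50 and 0.37.

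Promoter windows were read to see which motifs of known regulators the called genes hold there. RefSeq windows on GRCh38.p14 from 250 bases before to 50 bases after the transcript start were matched for 42 of the 48 genes, with 51 windows. PSMA7, PSMB1, PSMB6, PSMB7, PSMD4 and PSMG3 had no entry. The windows of the other 3 called genes follow, 5′ to 3′ on the gene's strand, with any motif searched for in capitals: PSMC3 at chr11:47426390-47426689 (minus), PSMD11 at chr17:32444260-32444559 (plus) and PSME2 at chr14:24146561-24146860 (minus).
PSMC3: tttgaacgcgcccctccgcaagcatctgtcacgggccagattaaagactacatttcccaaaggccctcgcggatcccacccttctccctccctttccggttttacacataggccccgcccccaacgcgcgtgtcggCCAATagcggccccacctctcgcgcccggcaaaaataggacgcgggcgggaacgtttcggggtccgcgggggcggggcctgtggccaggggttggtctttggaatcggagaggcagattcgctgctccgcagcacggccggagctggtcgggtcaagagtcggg
PSMD11: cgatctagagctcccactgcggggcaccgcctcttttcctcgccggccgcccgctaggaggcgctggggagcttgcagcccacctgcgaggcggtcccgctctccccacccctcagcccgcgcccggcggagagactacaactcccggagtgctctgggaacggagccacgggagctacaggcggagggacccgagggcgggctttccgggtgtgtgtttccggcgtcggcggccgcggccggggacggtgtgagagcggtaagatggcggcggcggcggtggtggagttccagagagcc
PSME2: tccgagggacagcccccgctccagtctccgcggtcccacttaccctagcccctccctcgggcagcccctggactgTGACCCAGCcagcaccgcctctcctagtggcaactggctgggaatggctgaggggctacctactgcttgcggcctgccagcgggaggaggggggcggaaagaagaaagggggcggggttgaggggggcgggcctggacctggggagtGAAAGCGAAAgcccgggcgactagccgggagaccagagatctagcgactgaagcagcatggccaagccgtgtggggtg
PSMC3 holds a CCAAT box at base 137 of its window. PSME2 holds the antioxidant response element core at base 76 and an interferon response element core at base 223. The window of PSMD11 held none of the 5 motifs searched.

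Each motif was searched on both strands in all 35116 windows, overlaps between motifs allowed. The antioxidant response element core TGACNNNGC, the letters that NRF1 binds, was in 15 of the 51 proteasome windows (29.4%) and 13.3% of all windows. The ETS site CCGGAAG was in 15 (29.4%) and 10.3%, and the CCAAT box in 20 (39.2%) and 34.6%. The interferon response element core, GAAA on both sides of any 2 bases, was in 7 (13.7%) and 3.57%, in PSMA4, PSMB4, PSMB8, PSMB10, PSME1, PSME2 and PSMG4. The E-box CACGTG was in 3 (5.88%) and 7.26%. Proteasome windows with the antioxidant response element core included PSME2, which fell, and PSMC4, PSMB3 and PSMD3, which were not called. The mean GC content was 61.3% in the proteasome windows and 57.5% in all windows, and the shares were not adjusted for it. A match is a description of letters and not a binding site.

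Among genes around the proteasome, 15 of the 60 tested were called by limma (25.0%), 7 higher and 8 lower, close to the 23.1% called over all genes tested (12.0% higher and 11.0% lower). In the NRF1 pathway list, 4 of 11 were called (36.4%, against 23.1% over all genes tested). DDI2, the protease that activates NRF1, rose from 2.48 ± 0.14 to 3.69 ± 0.12 FPKM (log2 difference 0.43, limma adjusted p = 0.00303). NFE2L1 itself had 49.7 ± 2.60 FPKM in sgControl and 54.1 ± 4.99 in sgH2AC19, and was not called (limma adjusted p = 0.290). NFE2L2, the related factor NRF2, fell from 10.4 ± 0.16 to 8.28 ± 0.65 FPKM (log2 difference -0.30, limma adjusted p = 0.0129). MAFF, a small MAF partner of both, and BACH1, a repressor at the same elements, also fell, with log2 differences of -0.51 and -0.44 (limma adjusted p = 0.00321 and 0.0116). Without sgControl replicate 1 NFE2L2 was no longer called (limma adjusted p = 0.0503), and BACH1 was not when all genes above 0 were tested (limma adjusted p = 0.0518).

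Of the ubiquitin and E1 enzyme genes, UBA6, an E1 enzyme, fell from 9.45 to 7.82 FPKM (log2 difference -0.24, limma adjusted p = 0.0208). That call was lost in 4 of 13 alternatives, with limma adjusted p up to 0.0783, among them those without sgControl replicate 2 or 3 or sgH2AC19 replicate 1. UBB, RPS27A and UBA1 were not called, with log2 differences of -0.16, -0.23 and -0.11.

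Of the 12 proteasome partners without a PSM name, PITHD1 rose from 8.12 ± 0.53 to 10.1 ± 0.955 FPKM (log2 difference 0.28, limma adjusted p = 0.0382). That call was lost in 6 of 13 alternatives, with limma adjusted p up to 0.127, among them each leave-one-out fit except that without sgH2AC19 replicate 1. The ubiquitin receptor gene ADRM1 had 14.6 and 13.7 FPKM, and POMP, which matures the core, had 20.3 and 18.8, neither called (limma adjusted p = 0.235 and 0.127).

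In the list for interferon-gamma signalling and MHC class I loading, 6 of 20 tested genes were called (30%, against 23.1% over all genes tested), 4 higher and 2 lower. The receptor chains differed in direction: IFNGR1 rose from 32.0 to 50.7 FPKM (log2 difference 0.64, limma adjusted p = 0.00201) and IFNGR2 fell from 13.3 to 9.90 (log2 difference -0.39, limma adjusted p = 0.00729). The chaperone genes CALR and PDIA3 of the peptide loading complex rose, with log2 differences of 0.43 and 0.26 (limma adjusted p = 0.00224 and 0.0111). The other called genes, named after their values were seen, were the kinase gene JAK1, which rose, and HLA-B, an MHC class I heavy chain, which fell, with log2 differences of 0.16 and -0.42 (limma adjusted p = 0.0317 and 0.0258). TAP1, the peptide transporter gene next to PSMB9, had 4.46 and 4.65 FPKM and TAP2 had 1.71 and 1.45, neither called (limma adjusted p = 0.611 and 0.138).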

How the data were processed

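The data were 1 table of FPKM for 62700 genes in 6 libraries, in which FPKM values were computed and deposited by the authors; per the labels, RNA from spin columns went into SMARTER mRNA libraries. The submitters' processing notes name the mouse builds GRCm38 and mm10, although every gene identifier is human and all 62700 matched a human symbol. For the aligner and the read counter, a name is not given in the sources used here. The columns were matched to the libraries by guide name and number.

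Low FPKM values fell on steps of 1 read, which gave the totals and read numbers. Reads were whole (tolerance 0.02) at the GENCODE 29 length for 3759 of the 12871 tested genes. For the others the smallest length that gave whole reads was searched for. With that search 99.99% of tested genes had whole reads, so this share is not a check of the read numbers. Totals differed by up to 1.28 times, and 3 libraries a group limit the precision. Genes at 1 FPKM or more in at least 3 libraries were tested with limma 3.58.1 (R 4.3.3, trend, two-sided) on log2(FPKM + 1), with Benjamini-Hochberg adjustment over 12871 genes and no covariate. The script was tested on simulated data. Sums and ratios have no test. Gene positions and copies came from GENCODE 29 on GRCh38, promoters from RefSeq on GRCh38.p14, and copies were aligned with Biopython 1.88. The alternatives were median-ratio and upper-quartile scaling, a pseudocount of 0.1, 2 other filters, the replicate number as a block and leaving out each library, and, chosen after seeing the data, voom on the recovered reads and sums of 3 genes with their pseudogenes. Values in every library were given for called proteasome genes, catalytic subunits and the highest and lowest of a role group. In each related list the rule named up to 4 called genes, given by means or differences, and a further 2 were named after their values were seen. The proteasome genes and all lists were chosen with earlier results of these data known. Some results for genes of the related lists are not reported here.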

Additional observations from a re-analysis of the deposited data

How the results depend on the processing

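PSMC3 was called under every alternative run. Both scalings, the pseudocount of 0.1, the filter on the mean and voom called the same 4 proteasome genes. With all genes above 0 FPKM tested, 1553 genes were called in all in place of 2967, with 2 proteasome genes (PSMB7 and PSMC3) and 8 related genes in place of 15; more genes were then tested. Leaving out 1 library gave between 1513 and 3429 calls over all genes, between 1 and 3 for proteasome genes and between 9 and 20 for related genes, with the highest counts without sgH2AC19 replicate 3. Some proteasome genes near 0 changed sign when 1 library was left out, with log2 differences from -0.039 to 0.051 for PSMA3, -0.048 to 0.028 for PSMA7, -0.045 to 0.0071 for PSMB2, -0.0098 to 0.026 for PSMC6, -0.043 to 0.030 for PSMD12 and -0.036 to 0.042 for PSMD8, and, among pseudogenes, -0.016 to 0.064 for PSMC1P1 and -0.26 to 0.033 for PSME2P1. Deviations of libraries with the same replicate number were only weakly correlated (0.0524, 0.0346 and 0.0602), although each library correlated best with its own number. Whether the numbers pair libraries across the groups cannot be told from these values. With the replicate number as a block, 2729 genes, 3 proteasome genes (PSMB7, PSMC3 and PSMB10, at a limma adjusted p of 0.0481) and 14 related genes were called. PSMB9 and PSMB10 rested on 76 to 186 reads a library, which limits what depth can show for them.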

Other observations

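The nearest tested protein-coding neighbours of the 4 called genes were looked up after the calls were known. Beside PSMB7, NEK6, a mitotic kinase gene, fell from 16.8 to 12.1 FPKM (log2 difference -0.44, limma adjusted p = 0.0341), while NR6A1 on the other side was not called (0.21, limma adjusted p = 0.125). Beside PSME2, REC8, a meiotic cohesin gene, fell from 1.44 to 0.979 FPKM (log2 difference -0.30, limma adjusted p = 0.0289) and EMC9 was level. Beside PSMC3, SLC39A13 and CELF1 had log2 differences of -0.26 and 0.14, neither called (limma adjusted p = 0.0679 and 0.125). Beside PSMD11, ZNF207 and MYO1D had log2 differences of -0.025 and -0.083, neither called.

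Of the 44 genes in the table named as pseudogenes of proteasome genes, 21 were at 0 in every library and 4 reached 1 FPKM in at least 1 library.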
